A study of Mus musculus with 5 samples.

Results

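The genes described here encode the enzymes that make cholesterol and its isoprenoid intermediates, together with the proteins that take sterols up, move them, export them and regulate their synthesis. They were chosen by name, as all probe sets annotated to a single symbol on a list of 35 symbols, with no measured value in the rule. The list held 34 genes, since Sc4mol is the older symbol of Msmo1. Of these, 32 genes were measured by 60 of 22626 probe sets. Acat2, a cytosolic thiolase of the first step, and Insig1, a sterol-sensing partner of the SREBP system, were not analysed here.

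Transcripts of fetal colon at stage E18.5 were measured on 1 array for each of 5 colon samples. The HNF4 null group (null_59, null_60 and null_426) had the genotype HNF4LoxP/LoxP FoxA3Cre, and the control group (CONTROL_406 and CONTROL_421) had HNF4LoxP/+ FoxA3Cre, so that both groups carried the Cre transgene and at least 1 floxed allele, and the controls kept 1 allele without loxP sites. HNF4 is a nuclear receptor of the gut epithelium, and the comparison asks which transcripts differ when both alleles are floxed. The labels do not say in which cells the transgene was active, whether samples came from 1 litter or how many embryos a sample held, so the p-values measure spread between these samples only. Hnf4a itself had 4 probe sets, and the brightest read 649.8, 746 and 723 in null_59, null_60 and null_426, below the 945 and 991 of both controls. Its differences, null minus control on the log2 scale defined with the first results, were -0.35, -0.55, 0.14 and 0.19, and none passed the threshold. The labels do not give the floxed part of the gene, and a probe set outside it need not show the deletion.

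Cholesterol is built from acetyl-CoA through HMG-CoA and mevalonate to farnesyl pyrophosphate, which also feeds protein prenylation, and then through squalene and lanosterol to the sterol itself. When the membranes of the endoplasmic reticulum lack sterol, the protein SCAP escorts the transcription factors SREBP-1 and SREBP-2 to the Golgi, where they are cut and released to the nucleus, while the INSIG proteins hold them back when sterol is plentiful. Surplus sterol acts through the LXR receptors, which raise the exporter genes Abca1, Abcg5 and Abcg8. The intestinal epithelium makes much of its own cholesterol, and Abcg5 and Abcg8 return plant sterols and cholesterol to the gut lumen.

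Promoter windows of 300 bases, 250 before and 50 after the start site, were available from RefSeq (build GRCm38.p6) for 26 of the listed genes, in 35 windows. The 3 windows that held the core letters TCACNCCA of the sterol response element, to which the SREBP proteins bind, are shown because SREBP-2 is the pathway's main activator, and they belong to 2 enzyme genes and to the gene of SREBP-2 itself. In the sequences, capitals mark the TCACNCCA core and each CCAAT box, a site of the cofactor NF-Y, which reads ATTGG where it lies on the other strand. The windows are those of Hmgcs1 (chr13:119690101-119690400, plus strand), Msmo1 (chr8:64733529-64733828, minus strand) and Srebf2 (chr15:82147019-82147318, plus strand), each printed 5′ to 3′ along its gene.
Hmgcs1: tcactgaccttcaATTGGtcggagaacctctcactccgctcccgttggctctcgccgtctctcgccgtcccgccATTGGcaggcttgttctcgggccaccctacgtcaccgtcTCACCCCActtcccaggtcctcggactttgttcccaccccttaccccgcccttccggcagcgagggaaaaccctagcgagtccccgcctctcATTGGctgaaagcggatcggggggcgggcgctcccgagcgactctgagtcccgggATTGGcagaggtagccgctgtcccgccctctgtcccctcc
Msmo1: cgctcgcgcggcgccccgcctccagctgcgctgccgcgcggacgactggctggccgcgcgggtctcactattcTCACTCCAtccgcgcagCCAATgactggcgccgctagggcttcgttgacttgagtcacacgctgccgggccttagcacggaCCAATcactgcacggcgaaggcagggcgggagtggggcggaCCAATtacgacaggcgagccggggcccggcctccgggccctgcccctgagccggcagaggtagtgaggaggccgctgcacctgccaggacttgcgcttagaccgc
Srebf2: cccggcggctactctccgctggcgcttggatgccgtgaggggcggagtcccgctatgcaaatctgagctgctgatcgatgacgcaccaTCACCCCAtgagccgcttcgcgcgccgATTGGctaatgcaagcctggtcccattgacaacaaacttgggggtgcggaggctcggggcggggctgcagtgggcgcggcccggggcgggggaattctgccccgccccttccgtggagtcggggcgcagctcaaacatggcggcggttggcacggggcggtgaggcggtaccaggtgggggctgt
The core began 137 bases before the start site of Hmgcs1, 177 bases before that of Msmo1 and 162 bases before that of Srebf2. Counted on both strands, the core was present in 3 of the 35 windows (8.57%) and in 4.36% of all 32851 promoter windows. The same core with an A just before it and a C just after it, the longer form of the element, was in 0 of the 35 windows and in 0.234% of all windows. CCAAT was in 23 of the 35 (65.7%) against 37.4% of all, and the GC box GGGCGG was in 26 (74.3%) against 35.7% of all. The letters CAAAGTCCA of an HNF4 site were in 0 of the 35 and in 0.475% of all windows. No CCAAT box overlapped the core in the printed windows, and a match in letters is not a shown binding site.

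No member differed between HNF4 null and control colons at the threshold, an adjusted p under 0.05 by limma over all 22626 probe sets. The count was 0 of 60 member probe sets, where 28 of all probe sets passed (0.124%), 24 of them lower (0.106%) and 4 higher (0.0177%) in null colons, and the smallest adjusted p of a member was 0.587. An unadjusted p under 0.05 was reached by 7 of the 60 (11.7%), against 7.15% of all probe sets. Of these, 4 were higher and 3 lower in null colons, where 2.82% and 4.33% of all probe sets were. The 4 higher ones belonged to Fdps (both probe sets), Abca1 and Scd1, and the 3 lower ones to Idi1, Fdft1 and Insig2. These counts moved with single arrays, to 9 higher and 0 lower without CONTROL_406 (where 5.16% and 4.93% of all probe sets were), 1 higher and 2 lower without CONTROL_421 (2.72% and 2.57% of all), 2 higher and 3 lower without null_59 (1.71% and 3.25%), and 6 higher and 1 lower without null_426 (2.24% and 3.01%). In deposited intensity, the 3 null arrays lay above both control arrays in 10 of the 60 and below both in 4, against 14.6% and 9.64% of all probe sets. Either way the groups were apart in 14 (23.3%), against 24.2% of all probe sets, which is no excess. A difference of at least 0.5 either way on the log2 scale described in the next paragraph was found in 5 of the 60 (8.33%), against 5.86% of all.

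The differences of single genes were small, and most of them lay above 0. Each gene was represented by its brightest probe set, and differences are null minus control on the log2(intensity + 16) scale after quantile normalisation, given with ± for their standard error. By these, 43 of the 60 member probe sets lay above 0 (71.7%), against 52.9% of all probe sets. By gene, 23 of the 32 members were higher in null colons (71.9%), against 53.6% of all 12393 genes, with a median difference of 0.13 against 0.02 for all genes. Among the 6 mevalonate and isoprenoid enzymes all 6 were above 0 by their brightest probe sets (median 0.21), but Idi1 lay at -0.17 with its probe sets averaged, Mvd at -0.05 without CONTROL_406 and Pmvk at -0.03 without null_60. With any 1 array left out, the median of the members lay between 0.10 and 0.19. By the brightest probe sets, the 95% interval of the difference lay within a 2-fold change either way for 31 of the 32 genes, all but Fdps, and for 11677 of all 12393 genes. By probe set it did so for 54 of the 60. Signs of this kind carry no test here, since the members share arrays and vary together.

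**Figure D1:**
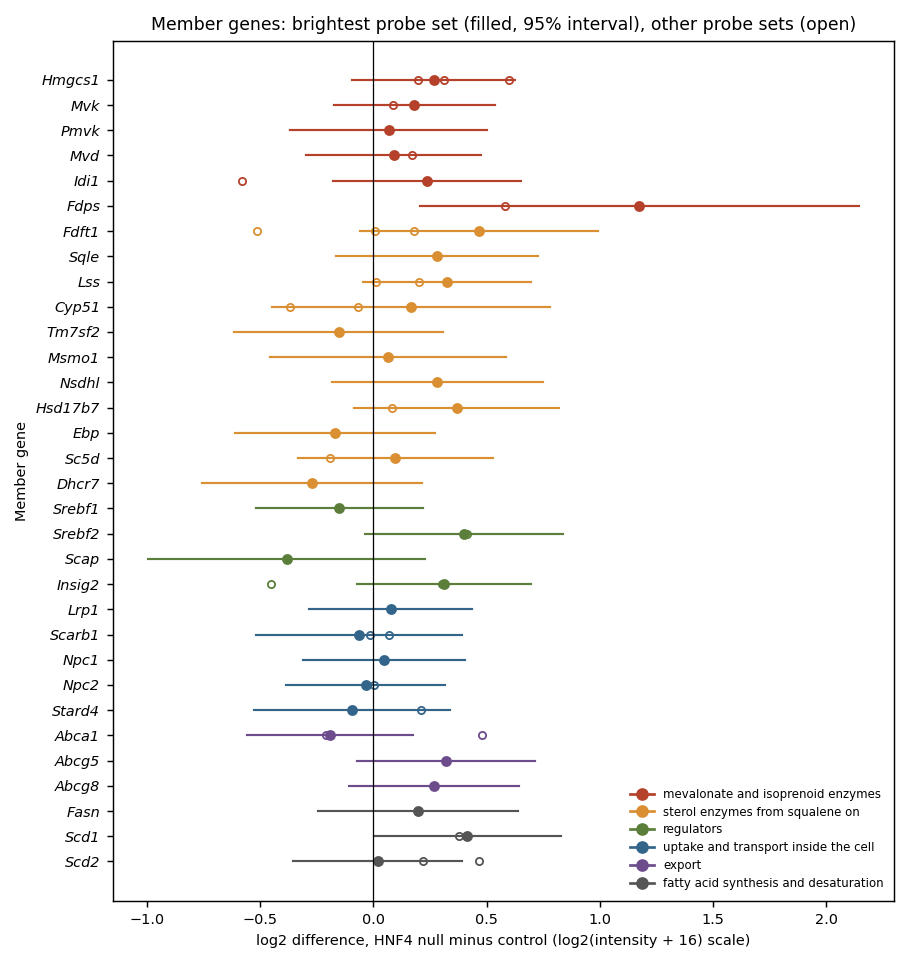
log2 difference between HNF4 null and control colons for the 32 member genes, with genes down the page by role. Filled points with lines are the brightest probe set of each gene and its 95% interval, and open points are the other probe sets. Most intervals cross 0, and Fdps stands out with the widest one (0.20 to 2.15).

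Hmgcs1 encodes the synthase that makes HMG-CoA and had 4 probe sets. Its brightest, 1433443_a_at, read 1586, 1675 and 1291 in null_59, null_60 and null_426, against 1353 and 1318 in CONTROL_406 and CONTROL_421. In deposited intensity null_426 lay below both controls and the other null arrays above them. After normalisation null_426 (10.50) also lay above CONTROL_406 (10.33) and CONTROL_421 (10.37). The difference, taken on that scale, was 0.27 ± 0.16 (SE, adjusted p = 0.771). The other probe sets differed by 0.31, 0.20 and 0.60. The last of these, 1433446_at, read 1159, 719.8 and 565 in the null arrays against 669 and 405 in the control arrays, with null_59 the highest and CONTROL_421 the lowest of the 5. All 4 probe sets of Hmgcs1 thus had a difference above 0, and none passed.

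Mevalonate is phosphorylated by the kinases of Mvk and Pmvk and decarboxylated by the product of Mvd. Mvk read 347, 351 and 349 in the null arrays and 333 and 289 in the control arrays, a difference of 0.18 ± 0.16. Its 3 null values spread less than its control values and lay above both. Pmvk differed by 0.07 ± 0.19 and Mvd by 0.09 ± 0.17, and both overlapped between groups. By their brightest probe sets, the intervals of these 3 genes ran from -0.37 at the lowest to 0.54 at the highest. The second probe sets of Mvk and Mvd differed by 0.08 and 0.17, and the interval of the latter reached 0.61.

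Idi1 encodes the isomerase of isopentenyl pyrophosphate, and its 2 probe sets pointed in opposite directions. The brighter, 1451122_at, read 821, 712 and 584 in the null arrays against 652 and 569.6 in the control arrays, a difference of 0.24 ± 0.18 (adjusted p = 0.802). By 1423804_a_at the values were 270.4, 187 and 175 in the null arrays against 356 and 285 in the control arrays, and the difference was -0.58 ± 0.22 (unadjusted p = 0.0243 and adjusted p = 0.645, limma). All 3 null values of the second probe set lay below both control values, while those of the first overlapped. With the mean of both probe sets the gene differed by -0.17, so no direction can be given for Idi1.

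Fdps encodes farnesyl pyrophosphate synthase, the enzyme at the branch to prenylation and to sterols, and had the largest difference of any member. Its brighter probe set, 1423418_at, read 1270.0, 1078 and 744 in null_59, null_60 and null_426, against 897 and 227 in CONTROL_406 and CONTROL_421. CONTROL_406 lay inside the range of the null arrays, and CONTROL_421 alone was low. The difference was 1.17 ± 0.43 (unadjusted p = 0.0227 and adjusted p = 0.642, limma). It was 0.28 without CONTROL_421 (adjusted p = 0.980) and 2.06 without CONTROL_406 (adjusted p = 0.0238), and over all alternatives tried the adjusted p lay between 0.0238 and 0.984. The dimmer probe set, 1438150_at, read 177, 173 and 202 in the null arrays against 92.1 and 142 in the control arrays. Here all null values lay above both controls and CONTROL_406, not CONTROL_421, was the lowest, with a difference of 0.58 ± 0.21 (unadjusted p = 0.0201 and adjusted p = 0.624). Without CONTROL_406 this second difference was 0.27, and without CONTROL_421 it was 0.88. The 2 probe sets of Fdps thus gave the same sign but each leaned on another control array.

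**Figure D2:**
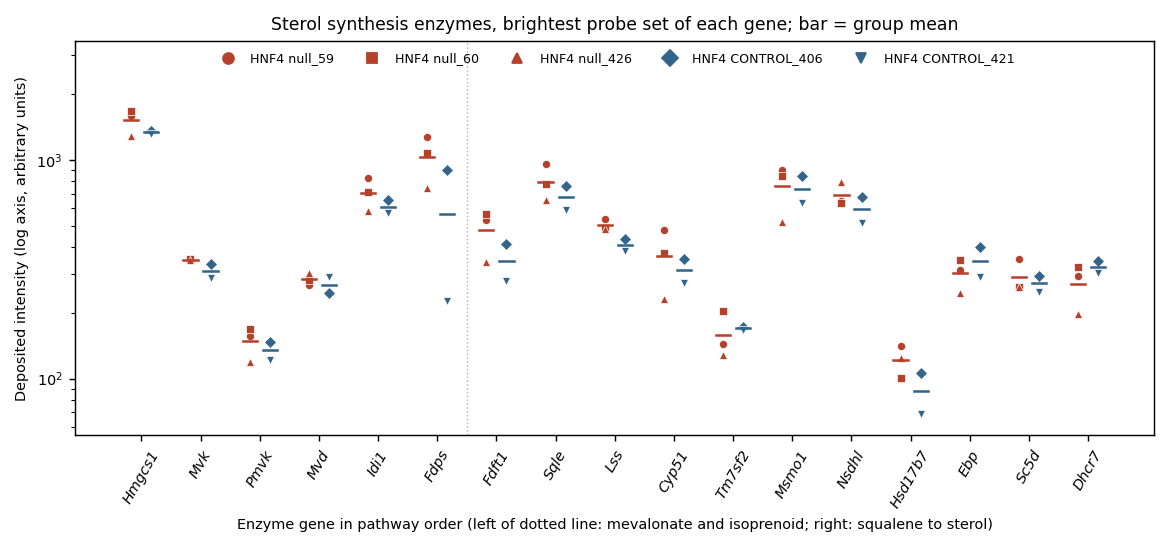
Deposited intensity (log axis) of the brightest probe set of 17 enzyme genes in pathway order, with HNF4 null arrays left and control arrays right of each position and bars at the group means. The groups overlap for most genes, and the low CONTROL_421 value of Fdps (227) stands apart from its other 4 values.

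Fdft1 encodes squalene synthase, the first enzyme of the sterol branch, and its 4 probe sets disagreed. The brightest, 1448130_at, read 531, 562 and 343 in the null arrays against 410.0 and 279.6 in the control arrays, a difference of 0.47 ± 0.23 (adjusted p = 0.728), and the groups overlapped through null_426. By the dimmer 1438918_at, the values were 98.2, 102 and 102 in the null arrays against 166 and 127 in the control arrays. All null values of that probe set lay below both controls, with a difference of -0.52 ± 0.17 and the smallest p of any member (unadjusted p = 0.0120 and adjusted p = 0.587, limma). The remaining 2, whose names end in _x_at because some of their probes may bind other transcripts, differed by 0.18 and 0.01.

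Sqle encodes squalene epoxidase, a rate-limiting step of the sterol branch, and read 955, 776 and 653 in the null arrays against 760.5 and 589 in the control arrays. The null_59 value was the highest and that of CONTROL_421 the lowest, the groups overlapped, and the difference was 0.28 ± 0.20 (adjusted p = 0.792). Lss, the cyclase that makes lanosterol, read 537, 486 and 483 in the null arrays against 434 and 382 in the control arrays by its brightest probe set. There all 3 null values lay above both controls, with a difference of 0.32 ± 0.16 (adjusted p = 0.733). Its dimmer probe sets differed by 0.20 and 0.01.

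Lanosterol is demethylated by Cyp51, reduced by Tm7sf2 and stripped of further methyl groups by Msmo1, Nsdhl and Hsd17b7. Msmo1 read 900.3, 846 and 519 in the null arrays against 839 and 637 in the control arrays, a difference of 0.06 ± 0.23. Its null_426 value was the lowest of all 5 arrays and its null_59 value the highest. Cyp51 differed by 0.16 ± 0.27 by its brightest probe set and by -0.37 and -0.07 by the others. The differences were 0.28 ± 0.21 for Nsdhl, 0.37 ± 0.20 for Hsd17b7 and -0.15 ± 0.21 for Tm7sf2. The groups overlapped in each of these genes by their brightest probe set.

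The last steps, a shift and the making and reduction of double bonds in the sterol ring, need Ebp, Sc5d and Dhcr7. Dhcr7, which makes cholesterol from its direct precursor, read 293, 324 and 196 in the null arrays against 343 and 305 in the control arrays, a difference of -0.27 ± 0.22 (adjusted p = 0.806). Its null_426 value was the lowest of the 5. Ebp differed by -0.17 ± 0.20. Sc5d differed by 0.10 ± 0.19 by its brightest probe set and by -0.19 by the other. Of the 11 measured sterol branch genes, 8 differences were above 0 and 3 below (Tm7sf2, Ebp and Dhcr7) by the brightest probe sets, and the median was 0.16. With a gene's probe sets averaged, Cyp51 (-0.09) and Sc5d (-0.05) lay below 0. Fdft1 (0.03), Lss (0.18) and Hsd17b7 (0.23) stayed above it.

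Most enzyme genes, like most genes on the array, varied more among the null colons than they differed between the groups. For 13 of the 17 enzyme genes the range of the 3 null arrays was wider than the difference between the groups (76.5%, against 79.9% of all genes). That range had a median of 0.48 on the log2 scale for the enzyme genes and 0.34 for all genes. Among the 5 arrays, null_59 was the highest for 9 of the 17 (52.9%, against 14.1% of all genes) and CONTROL_421 the lowest for 9 of the 17 (52.9%, against 20.9%). In the sterol branch alone null_426 was the lowest for 5 of 11 genes and CONTROL_421 for the other 6. Median distances of the 11 from the mean of the 5 arrays were 0.32 in null_59, 0.10 in null_60 and -0.21 in null_426, against 0.03 in CONTROL_406 and -0.24 in CONTROL_421. The highest and the second lowest array thus both came from null colons. These counts are descriptions with no test, since genes of 1 array are not independent.

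**Figure D3:**
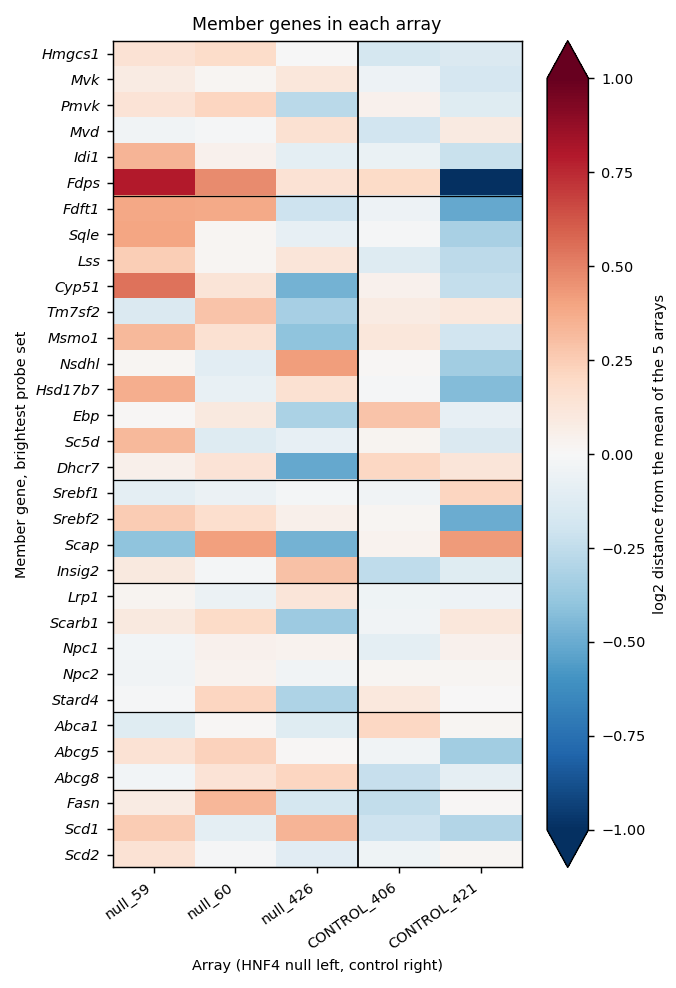
Distance of each member gene's normalised log2 value from its mean over the 5 arrays (colour scale in log2 units), with HNF4 null arrays left and control arrays right of the line, and lines between role groups. Sterol branch genes are mostly high in null_59 and low in null_426 and CONTROL_421.

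Among the regulators, Srebf2, which encodes SREBP-2, the main activator of the sterol enzymes, read 739, 738 and 620.4 in the null arrays against 659.5 and 442 in the control arrays. The difference was 0.40 ± 0.19 (unadjusted p = 0.0698 and adjusted p = 0.728, limma), and its second probe set differed by 0.41 ± 0.24. In both probe sets CONTROL_421 was the lowest array, 0.52 and 0.63 below CONTROL_406 on the log2 scale. The difference of the brightest was 0.14 without CONTROL_421 and 0.65 without CONTROL_406. By the brightest probe set CONTROL_406 lay within the null range in deposited intensity. After normalisation CONTROL_406 (9.36) lay below null_426 (9.39), the lowest null array. The 3 genes whose promoters are printed above thus differed by 0.27 (Hmgcs1), 0.06 (Msmo1) and 0.40 (Srebf2), and none passed. The 21 measured genes with a window but without the core had a median of 0.10. For CCAAT the medians were 0.18 in 21 genes with it and -0.19 in 3 without. For the GC box they were 0.09 in 20 genes with it and 0.23 in 4 without. These medians carry no test. Srebf1, the gene of the SREBP-1 forms that act on fatty acid synthesis, read 569, 631 and 588 in the null arrays against 634 and 745 in the control arrays. All 3 null values lay below both controls there, null_60 narrowly. After normalisation null_426 (9.314) lay above CONTROL_406 (9.301), and the difference was -0.15 ± 0.16 (adjusted p = 0.855). Scap differed by -0.38 ± 0.27, with its highest deposited intensity in null_60 and its highest normalised value in CONTROL_421.

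Insig2, which retains the SCAP and SREBP complex, again had probe sets of opposite sign. By 1417981_at it read 303, 289.7 and 342 in the null arrays against 241 and 258 in the control arrays, with all null values above both controls and a difference of 0.31 ± 0.17 (adjusted p = 0.757). By the dim 1417980_a_at it read 33.4, 47.1 and 41.3 in the null arrays against 61.7 and 51.9 in the control arrays, with all null values below both controls and a difference of -0.45 ± 0.17 (unadjusted p = 0.0259 and adjusted p = 0.648, limma). The third probe set differed by 0.30 ± 0.25.

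Transcripts for uptake and transport of sterol inside the cell had differences near 0 by their brightest probe sets. Npc2, a soluble sterol carrier of the lysosome, read 1365, 1500.0 and 1243 in the null arrays against 1521 and 1472 in the control arrays, a difference of -0.03 ± 0.16 with a 95% interval of -0.39 to 0.32. Stard4, a cytosolic sterol carrier, read 644, 807 and 506 in the null arrays against 747 and 671 in the control arrays, a difference of -0.09 ± 0.19. The membrane partner Npc1 differed by 0.04 ± 0.16, the lipoprotein receptor gene Scarb1 by -0.06 ± 0.20 and the endocytic receptor gene Lrp1 by 0.08 ± 0.16. Over these 5 genes the median difference was -0.03, and the 95% intervals ran from -0.53 to 0.44.

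Of the exporters, Abcg5 and Abcg8, whose proteins pair to form 1 sterol pump, were both above control in all 3 null arrays. The null arrays lay above both controls in 14.6% of all probe sets. Abcg8 read 184, 214 and 222 in the null arrays against 161 and 172 in the control arrays, a difference of 0.27 ± 0.17 (adjusted p = 0.776). Abcg5 was dim, at 67.6, 72.7 and 65.8 in the null arrays against 58.1 and 38.6 in the control arrays, and differed by 0.32 ± 0.17 (adjusted p = 0.753). Neither was among the 7 member probe sets with an unadjusted p under 0.05.

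Abca1, which loads cholesterol onto apolipoprotein A-I, read 114, 127 and 119 in the null arrays against 148 and 120.3 in the control arrays by its brightest probe set, a difference of -0.19 ± 0.16 (adjusted p = 0.816). By the dim 1450392_at it read 37.2, 39.9 and 49.8 in the null arrays against 30.4 and 16.9 in the control arrays. That probe set differed the other way, by 0.48 ± 0.18 (unadjusted p = 0.0233 and adjusted p = 0.642, limma), and its CONTROL_421 value was the lowest of the 5. The third probe set differed by -0.21 ± 0.18.

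**Figure D4:**
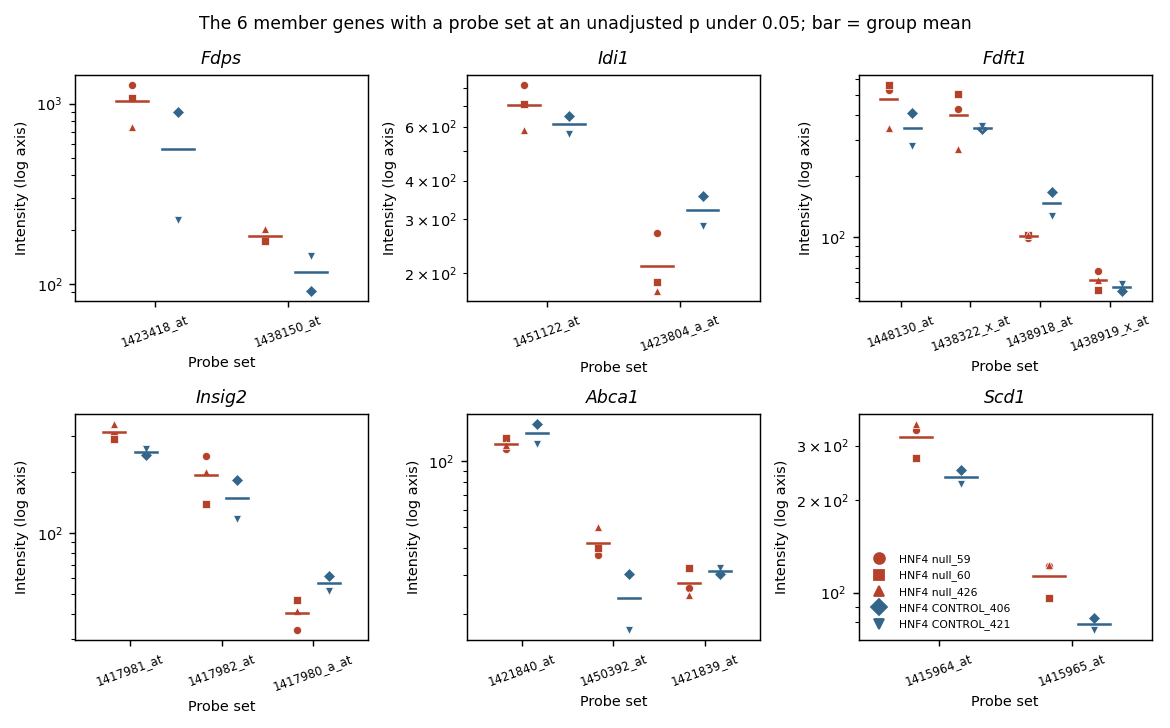
Deposited intensity (log axis) of every probe set of Fdps, Idi1, Fdft1, Insig2, Abca1 and Scd1, with HNF4 null arrays left and control arrays right and bars at the group means. The probe sets of Idi1, Fdft1, Insig2 and Abca1 differ in direction within a gene, and those of Fdps and Scd1 do not.

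The fatty acid genes on the list make the acyl chains that accompany sterol in membranes and esters. Scd1, a stearoyl-CoA desaturase, read 338, 273 and 352 in the null arrays against 250.02 and 225 in the control arrays, with all null values above both controls. The difference was 0.41 ± 0.18 (unadjusted p = 0.0498 and adjusted p = 0.699, limma), and its second probe set, which did not overlap between groups either, differed by 0.38 ± 0.17. Its paralog Scd2 read 4054, 3635 and 3414 in the null arrays against 3688 and 3673 in the control arrays, a difference of 0.02 ± 0.17 with an interval of -0.35 to 0.39. The other probe sets of Scd2 differed by 0.47 and 0.22. In both of them CONTROL_421 was the lowest array, at 1168 and 507, while CONTROL_406 read 2109 and 1222, inside the null range. How far each probe set separates the near paralogs is uncertain. Fasn, fatty acid synthase, read 519.8, 663 and 424 in the null arrays against 432 and 511 in the control arrays and differed by 0.20 ± 0.20.

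Probe sets of 1 gene often differed in sign, here as over the whole array. Of the 18 members with over 1 probe set, 9 had differences on both sides of 0 (50%), against 53.7% of all 4956 such genes. The widest gaps were 0.98 in Fdft1, 0.82 in Idi1 and 0.77 in Insig2, and the median gap of the members was 0.31 against 0.27 over all such genes. Names ending in _a_at or _s_at mark probe sets that may bind several transcripts of a gene or of several genes, and which transcripts they read was not analysed here.

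The 2 control arrays were far apart for Fdps, but by gene the members showed no excess of such gaps. By the brightest probe sets, the controls lay at least 0.5 apart on the log2 scale in 2 of the 32 members, Fdps and Srebf2. Over all genes this was so in 1469 of 12393, and the median gap was 0.17 for the members and 0.19 for all genes. The 17 enzyme genes alone had a larger median gap of 0.28. In 14 of these 17 CONTROL_406 lay above CONTROL_421, against 5599 of all 12393 genes. CONTROL_406 exceeded CONTROL_421 by at least 0.5 on the log2 scale in 7 of the 60 member probe sets, against 7.84% of all probe sets, and lay below it by as much in 2, against 6.54%. For Fdps by 1423418_at the gap was 1.79, and only 38 of 22626 probe sets, this one included, had a gap as large in that direction. The null arrays averaged 0.11 above CONTROL_406 and 0.19 above CONTROL_421 in the median over the 32 members, while over all genes these medians were 0.02 and 0.01. Gapdh has control probe sets at both ends of its transcript, and their 3′ over 5′ ratio, a sign of RNA quality, was 0.794 to 0.895 in the null arrays, against 0.767 in CONTROL_406 and 1.47 in CONTROL_421. Its part in the differences of Fdps and the other members was not tested.

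**Figure D5:**
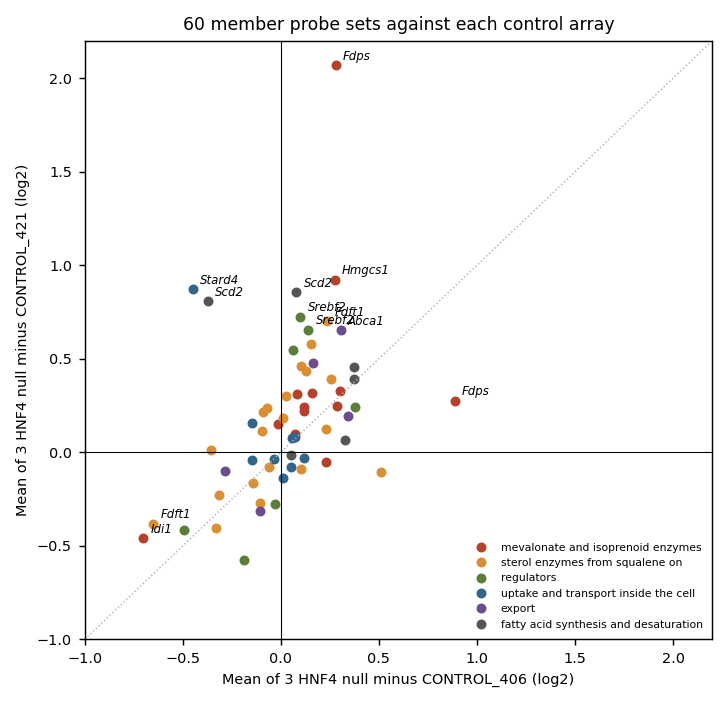
The mean of the 3 HNF4 null arrays minus CONTROL_406 (horizontal) and minus CONTROL_421 (vertical), on the log2 scale, for the 60 member probe sets by role. Points on the dotted line differ equally from both controls, and Fdps lies far from it in both directions, 1 point for each of its probe sets.

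Further genes of these pathways were listed by function and not by value, and 48 of them were measured by 87 probe sets. By limma 0 of the 87 passed after adjustment. Without adjustment, 4 probe sets were higher and 2 lower in null colons at a p under 0.05, against the 2.82% and 4.33% of all probe sets given above. Their median difference was 0.04 by gene. The 15 genes of fatty acid synthesis, with 30 of the 87 probe sets, had 3 of the 4 higher ones (of Fads1, Acly and Elovl6). They also had 1 of the 2 lower ones (of Acss2), and the other probe set of Elovl6 differed by -0.02.

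Fads1, a delta-5 desaturase of polyunsaturated fatty acids, read 482, 531 and 338 in the null arrays against 333 and 257 in the control arrays, above both controls in all null arrays, a difference of 0.59 ± 0.21 (unadjusted p = 0.0182 and adjusted p = 0.615, limma). Acly, which makes cytosolic acetyl-CoA from citrate, differed by 0.83 ± 0.34 by 1425326_at, at 636, 452 and 419.6 in the null arrays against 442 and 166 in the control arrays, and CONTROL_421 alone was low as for Fdps. Its 4 other probe sets differed by 0.01 to 0.34. Acss2, which makes acetyl-CoA from acetate, differed by -0.65 ± 0.25 by the dimmer 1422478_a_at (unadjusted p = 0.0296 and adjusted p = 0.653, limma). By its brightest probe set the difference was -0.39 ± 0.22, and the groups overlapped.

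The 10 measured genes of isoprenoid branches and prenylation had a median difference of 0.07, with Nus1, a subunit of the dolichol-making transferase, at -0.51 by 1 of 3 probe sets and -0.18 by its brightest, the protease gene Rce1 at 0.31 and Ggps1, geranylgeranyl pyrophosphate synthase, at -0.38 by 1 of 4 probe sets but 0.18 by its brightest. Among the 5 other SREBP and LXR genes, Erlin1, of a protein complex in the endoplasmic reticulum, differed by 0.45 by 1 of 2 probe sets and 0.13 by its brightest, the receptor-degrading ligase gene Mylip, an LXR target, by -0.30 and Rxra, the nuclear receptor that pairs with LXR, by -0.15 by 1 of 2 and 0.02 by its brightest. The 8 further genes of uptake, storage and export had a median of 0.14, with Osbp, a sterol transfer protein, at 0.21, the lysosomal lipase gene Lipa at 0.27 and the exporter gene Abcg1 at -0.23. The 3 further genes of sterol synthesis (Acat1, Cyb5r3 and Tmem97) and the 7 of oxysterols lay between -0.32 and 0.18 by their brightest probe sets, with Ch25h, a cholesterol hydroxylase, the lowest. Cyb5r3, a reductase that feeds electrons to desaturation, had 4 probe sets from -0.53 to 0.71, with the brightest at 0.18, and its highest had a gap of 1.19 between the controls.

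All 8 epithelial markers lay above the median probe set in at least 1 array, with summed intensities of 15629.7 to 18494 in null and 17998 to 20036 in control colons, and 2 of them (Epcam and Vil1) were lower at an unadjusted p under 0.05 but did not pass. The 6 smooth muscle markers summed to 14677 to 16167 in null and 12208 to 15091 in control colons, and 2 (Myh11 and Tagln) were higher at that level. Endothelial markers (5 genes) summed to 766 to 994 in null and 704 to 742 in control colons, and none reached that level. Mesothelial markers (3 genes) summed to 373 to 454 in null and 242 to 368 in control colons. Of these, Wt1 was higher at that level but lay below the median probe set in every array. The sums of the endothelial and mesothelial lists did not overlap between the groups. Those of all other lists did, among them fibroblasts, macrophages, erythroid cells, adipocytes and enteric neurons and glia. Of all single probe sets, 24.2% did not overlap, either way. Over all genes by their brightest probe sets, 325 of 12393 were higher and 530 lower at that level, and 0 genes of these marker lists passed after adjustment. Of 6 markers of adrenal and gonadal steroid cells, 4 lay below the median probe set in every array, none was at 0, and their sums were 559 to 691 in null and 553 to 598 in control colons. The liver markers summed to 572 to 774 in null and 639.7 to 732 in control colons. The part of these cell types in the differences above was not tested, and in whole colon RNA, fewer cells of a type and less RNA per cell cannot be told apart. Median intensities of the arrays were 124 to 135, and pairs of arrays correlated at 0.946 to 0.974 across probe sets.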

How the data were processed

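The deposited table gave 1 intensity on a linear scale per probe set and array. Per the labels' protocols, total RNA was taken with RNeasy columns, labelled with biotin and run by the array maker's standard procedure. Probe summary, scaling, background step and genome build are not given in the sources used here. Each array held some intensities below 0. Of 22690 probe sets, 64 control probe sets were left out. An annotation of 2016 named 20380 of the other 22626 with 1 symbol, 691 with several and left 1555 unnamed.

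Values below 0 were set to 0, taken as log2(intensity + 16) and quantile normalised. limma 3.58.1 in R 4.3.3 (lmFit, eBayes, two-sided, no covariate) compared 3 null with 2 control arrays over all probe sets, with Benjamini-Hochberg adjustment, a threshold of 0.05 and 9.33 total degrees of freedom. Fold changes on this scale understate those of dim probe sets. Printed intensities are as deposited, and overlap was judged on them. Precision is set by the small number of arrays. The fit was tested on simulated data.

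The members, lists and tests were chosen with earlier results of these data known. All members are named. Arrays are given 1 by 1 for member probe sets with an unadjusted p under 0.05 or a difference of at least 0.5 and for the 2 brightest genes of each role, with some others added after their values were seen. Of each further list up to 3 genes with the smallest p are named. The alternatives were the table with no quantile step or centred on medians, other pseudocounts (1 and 64), a filter that dropped the dimmer probe sets, 2 variance trends, weights for arrays, gene means over probe sets and each array left out.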

Additional observations from a re-analysis of the deposited data

How the results depend on the processing

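The count of member probe sets past the adjusted threshold was 0 in every alternative except without CONTROL_406, where it was 1 (Fdps, with 0.46% of all probe sets past it), so that it ranged from 0 to 1 with 1 array left out. The count higher at an unadjusted p under 0.05, 4 in the reported fit, was 14 with array weights (4.86% of all probe sets there) and from 1 (without CONTROL_421, 2.72%) to 9 (without CONTROL_406, where 5.16% of all were) with 1 array left out. It was 2 without null_59 (1.71%). The array weights were 3.65 for null_59 and 0.59 to 0.84 for the other arrays, so the weighted fit leaned on null_59. The count lower, 3 in the reported fit, was 1 of 43 once the dimmer probe sets were dropped (4.93% of all), and from 0 (without CONTROL_406, 4.93%) to 3 with 1 array left out. It was 1 without null_426 (3.01%). The median difference over the members kept its sign in all 14 alternatives (0.065 to 0.193). Of 444 single-gene values under these alternatives, 23 changed sign, in 12 genes that did not pass in either case. By median centring these were Scd2 (-0.042) and Msmo1 (-0.040), by array weights Scarb1 (0.015), and with a gene's probe sets averaged Abca1 (0.026), Stard4 (0.059), Cyp51 (-0.091), Idi1 (-0.17) and Sc5d (-0.046). With 1 array left out, the lowest and highest values were -0.052 and 0.074 for Scd2, -0.17 and 0.11 for Scarb1, -0.35 and 0.014 for Ebp, -0.050 and 0.23 for Mvd, -0.089 and 0.29 for Msmo1, -0.029 and 0.12 for Npc1, -0.026 and 0.22 for Pmvk, -0.22 and 0.044 for Stard4, -0.076 and 0.44 for Cyp51 and -0.048 and 0.18 for Sc5d. The cause was not tested. Where 1 control was left out, the spread of the other was taken from the null arrays. No paired analysis was possible because the groups share no replicate numbers. With 3 and 2 arrays, the differences of most members had 95% intervals that include 0, and a p that missed the threshold does not show equal levels.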
